A study of Mus musculus with 2 samples.

Results

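The genes described here encode hormones of the immature Sertoli cell, the somatic nurse cell of the seminiferous tubule, with a hormone receptor and a steroid binding protein of the same cell. Of the 7 genes chosen by name (Amh, Amhr2, Inha, Inhba, Inhbb, Fshr and Shbg), 6 had a probe set annotated to exactly 1 gene symbol, with 1 probe set each. These 6 probe sets stood among 12422 non-control probe sets of a single-colour Affymetrix mouse array. No probe set of this kind carried the symbol Amhr2, the receptor gene of anti-Müllerian hormone, which was therefore not analysed here. No probe set with several symbols held a member.

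Polyadenylated RNA came from day 10 testes of mice homozygous for a mutation of Mili (Mili-/-, 1 array) and of heterozygous mice (Mili+/-, 1 array). The heterozygous control itself carried 1 mutant allele, and no wild-type array was used here. MILI, the product of Piwil2, is a Piwi protein of germ cells that binds small RNAs and acts in transposon silencing. Per the labels, spermatogenesis in the mutant stops in early meiotic prophase and dying cells first appear at day 11, and the day 10 sampling was meant to precede that loss. The labels used here give neither the strain, the number of mice behind an array nor the design of the mutant allele. With 1 array per genotype no value has a replicate, no p-value could be formed, and every difference describes these 2 arrays.

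Anti-Müllerian hormone, encoded by Amh, makes the embryonic female duct regress in males and stays high in Sertoli cells until puberty, when androgen action and the entry of germ cells into meiosis lower it. Inhibins pair the alpha subunit (Inha) with a beta subunit, beta A (Inhba) or beta B (Inhbb), and restrain the release of follicle stimulating hormone (FSH) by the pituitary. Dimers of beta subunits without alpha form activins, which stimulate it. FSH acts on Sertoli cells through its receptor (Fshr), a receptor coupled to the stimulatory G protein and cAMP, and Shbg in the testis encodes the androgen binding protein that these cells secrete.

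Windows at an annotated transcript start are given first for 4 members. They set Inha and Shbg, with higher signals in the Mili-/- array, beside Inhbb, with a lower one, and Fshr, which differed little. For Amh no window is printed. The windows are from RefSeq (GRCm38.p6) and run from 250 bases before an annotated transcript start to 50 after it, 300 bases each, 5′ to 3′ on the gene's strand. They lie at chr1:75507359-75507658 (plus strand) for Inha, chr11:69617856-69618155 (minus strand) for Shbg, chr17:89200626-89200925 (minus strand) for Fshr and chr1:119422199-119422498 (minus strand) for Inhbb. The Inha gene spans chr1:75507077-75510366, so its window lies wholly inside the gene and does not hold the sequence before the gene's first base. The Shbg gene spans chr11:69610282-69618026, so the transcript start used for Shbg also lies inside the gene. Capitals mark matches, on either strand, to any of the motifs named after them.
Inha: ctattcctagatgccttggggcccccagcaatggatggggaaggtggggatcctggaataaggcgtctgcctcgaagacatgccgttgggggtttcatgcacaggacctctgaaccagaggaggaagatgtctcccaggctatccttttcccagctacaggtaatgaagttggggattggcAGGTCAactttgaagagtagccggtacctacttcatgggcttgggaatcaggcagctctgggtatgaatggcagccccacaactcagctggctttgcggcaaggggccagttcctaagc
Shbg: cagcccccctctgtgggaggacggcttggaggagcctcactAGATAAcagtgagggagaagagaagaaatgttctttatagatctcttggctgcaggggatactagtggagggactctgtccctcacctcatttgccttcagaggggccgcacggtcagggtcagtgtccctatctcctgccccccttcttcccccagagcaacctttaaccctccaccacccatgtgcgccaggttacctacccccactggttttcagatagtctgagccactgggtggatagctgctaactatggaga
Fshr: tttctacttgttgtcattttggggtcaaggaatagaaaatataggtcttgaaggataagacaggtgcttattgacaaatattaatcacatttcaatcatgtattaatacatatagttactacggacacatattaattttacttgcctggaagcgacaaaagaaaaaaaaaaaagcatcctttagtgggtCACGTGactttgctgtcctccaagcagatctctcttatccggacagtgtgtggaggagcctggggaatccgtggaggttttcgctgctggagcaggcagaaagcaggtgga
Inhbb: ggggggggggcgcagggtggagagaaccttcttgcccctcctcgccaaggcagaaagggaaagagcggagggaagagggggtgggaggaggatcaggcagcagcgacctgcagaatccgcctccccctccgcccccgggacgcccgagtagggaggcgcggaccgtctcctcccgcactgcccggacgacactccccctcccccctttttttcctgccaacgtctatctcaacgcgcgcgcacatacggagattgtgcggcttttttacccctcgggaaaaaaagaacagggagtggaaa
One motif searched on both strands was AGGTCA, which steroidogenic factor, the product of Nr5a1, is known to bind. The E box CACGTG was another, known as a site of basal Fshr promoter activity. The cAMP response element, through which FSH signalling reaches many promoters, was searched as TGACGTCA. Its shorter variant form was searched as TGCGTCA. For the GATA factors the letters were AGATAA. For the SOX factors they were ACAAAG. The Inha window, which lies inside the gene, held 1 match, AGGTCA, beginning 69 bases before the transcript start used. For Inha the sequence before the gene's first base was not searched. The Shbg window held 1, AGATAA, 209 bases before the start, and the Fshr window held 1, CACGTG, 61 bases before it. None of these motifs occurred in the Inhbb window. Such matches were common, with AGGTCA in 16.3% of the 32851 promoter windows of the same length, AGATAA in 11.2%, CACGTG in 7.15% and ACAAAG in 18.7%. The cAMP elements were rarer, at 1.79% for TGACGTCA and 2.12% for TGCGTCA. A match describes letters in the window and was not tied to the signals. The motifs do not overlap one another in these windows.

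The deposited values are linear signal intensities. The array median was 41.55 in Mili-/- and 38.5 in Mili+/-, a shift of 0.11 on the log2 scale, so signals were set relative to each array's median, and differences are given on the log2 scale as Mili-/- minus Mili+/-. A probe set was compared if its signal reached the array's median on at least 1 array, which held for 6484 probe sets and for all 6 members, although Inhba reached it on the Mili+/- array alone. The compared probe sets had a median difference of -0.01 as deposited and of -0.12 after centring on the array medians. Each member is therefore also given relative to the centred value of -0.12. Probe sets of the same gene disagreed by an SD of 0.31 (log2, 720 genes with more than 1 compared probe set), the only error that could be estimated, and it covers neither animals nor hybridisations. Signals of different probe sets are not on a common scale, so members were not ranked by level.

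Amh, Shbg and Inha had higher signals in the Mili-/- array and Inhbb a lower one, while Fshr and Inhba stood nearer to the bulk of the array. No member reached 2-fold. In the whole comparison 33 probe sets (0.509%) were 2-fold or more higher in Mili-/- and 42 (0.648%) were lower by as much. At a difference of at least 0.32 (log2) in size, close to the disagreement between probe sets of a gene, 2 of the 6 members were higher (Amh and Shbg) and 1 was lower (Inhbb). The array-wide shares at that size were 8.24% higher (534 probe sets) and 22.2% lower (1442 probe sets), so a single lower member among 6 is near the background. These splits depended on scaling. With the values as deposited, 52 probe sets were 2-fold higher and 26 lower, 856 were higher and 815 lower by at least 0.32, and Inha (0.41) then joined Amh and Shbg past that size. The members' median difference was 0.18, against -0.12 for all compared probe sets. With the values as deposited it was 0.29, against -0.01, and with both arrays past the brightness minimum, which leaves out Inhba, 0.30 against -0.12. At the median-centred values, 4 of the 6 members lay above the array-wide median.

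**Figure D1:**
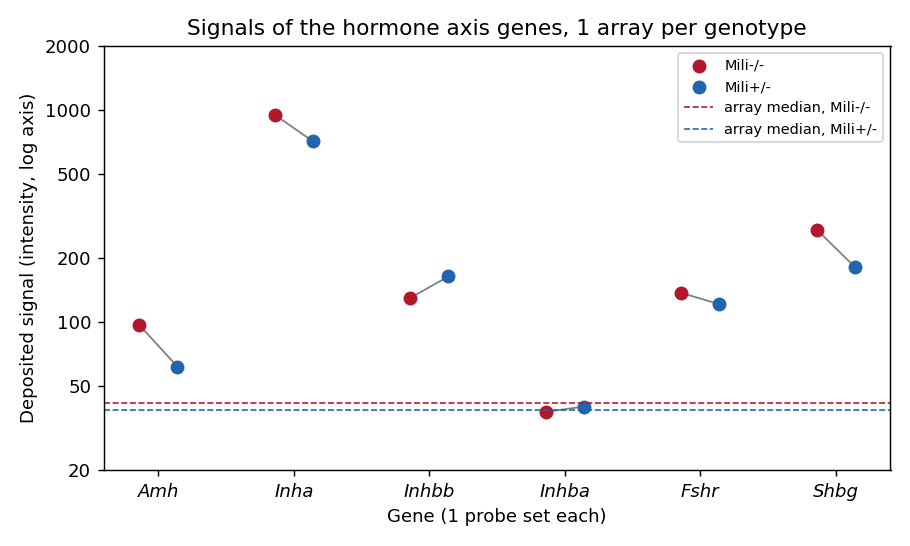
Deposited signal (log axis) of the 6 genes, 1 probe set each, in the Mili-/- array (red, left of each pair) and the Mili+/- array (blue, right), with each array's median as a dashed line. Amh, Inha, Fshr and Shbg are higher in the red array, Inhbb and Inhba lower, and Inhba lies at the array medians.

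Among the hormones, Amh (probe set 101765_at) gave 96.5 in Mili-/- and 61.6 in Mili+/- (deposited signal), a ratio of 1.57 as deposited. After centring the difference was 0.54, a 1.45-fold higher signal, or 0.66 relative to the compared probe sets. The centred difference exceeded the SD between probe sets of a gene by a factor of 1.73. Of all compared probe sets, 3.62% (235) had a difference as high or higher, and among probe sets of like brightness (1 of 5 equal bins by mean log2 signal) the share was also 3.62%. The central 95% of differences in that bin ran from -0.68 to 0.58, so Amh lay inside it, near its upper end. The Amh signal was moderate, at 2.32 times the array median in Mili-/- and 1.60 times in Mili+/-.

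Inha (102266_at), the alpha subunit that all inhibins share, had a bright probe set, at 946 in Mili-/- and 710 in Mili+/-. The ratio as deposited was 1.33. The centred difference was 0.30 (1.23-fold higher), which is 0.97 times the SD between probe sets of a gene. Relative to the compared probe sets it was 0.42. Differences are narrower among bright probe sets. In the brightest bin, where the central 95% ran from -0.49 to 0.26, the Inha difference lay above that range and 1.70% of probe sets were as high or higher, against 8.82% of all compared probe sets.

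Inhbb (160828_at), which supplies the beta subunit of inhibin B, the main inhibin of the rodent testis, gave 130 in Mili-/- and 164 in Mili+/-. The ratio as deposited was 0.793. The centred difference was -0.44, a 1.36-fold lower signal, and -0.32 relative to the compared probe sets. Values as low or lower were found in 11.6% of all compared probe sets and in 14.1% of its brightness bin, where the central 95% ran from -0.74 to 0.50. The Inhbb difference was thus of a size that many probe sets showed.

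Inhba (100277_at), the beta A subunit of inhibin A and activin A, had 37.7 in Mili-/- and 39.9 in Mili+/-, at the level of the array medians. Its centred difference was -0.19 (1.14-fold lower), or -0.07 relative to the compared probe sets, within the SD between probe sets. The dimmest bin, to which it belongs, had a central 95% from -0.96 to 0.91, so a moderate difference of Inhba would not stand out on these arrays.

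The alpha and beta B subunits thus differed in opposite directions, and their ratio is unaffected by multiplying an array by a constant, though not by quantile normalization or loess. Inha over Inhbb was 7.28 in Mili-/- and 4.34 in Mili+/-, a 1.68-fold higher ratio and a log2 change of 0.75, which is 1.70 times the SD for a pair of probe sets. Inha over Inhba was 25.1 in Mili-/- and 17.8 in Mili+/- (log2 change 0.50). Amh over Inhbb was 0.743 in Mili-/- and 0.376 in Mili+/-, a 1.98-fold higher ratio (log2 change 0.98, 2.23 times that SD). Amh over Inha changed less, with 0.102 in Mili-/- and 0.0867 in Mili+/- (log2 change 0.23). Only the change of a ratio is meaningful here, since each probe set has its own response, and these ratios were chosen after the values had been seen.

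The other beta subunit genes of the family were on the array but are not among the 7. Inhbc had 53.0 in Mili-/- and 38.5 in Mili+/- (0.35), reaching the array median on both arrays, and Inhbe had 10.5 in Mili-/- and 1.80 in Mili+/-, below the brightness minimum.

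For the receptor, Fshr (101810_at) gave 137 in Mili-/- and 121 in Mili+/-, a ratio of 1.13 as deposited. The centred difference was 0.07 (1.05-fold), or 0.19 relative to the compared probe sets, under the SD between probe sets in either case. Of all compared probe sets 25.1% stood at or above this difference.

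Shbg (100702_at), the androgen binding protein gene, had 272 in Mili-/- and 182 in Mili+/-. The centred difference was 0.47, a 1.39-fold higher signal, which is 1.51 times the SD between probe sets of a gene. Relative to the compared probe sets it was 0.59. Of all compared probe sets 4.53% (294) were as high or higher. In its brightness bin the share was 1.54%, and Shbg lay above the central 95% of that bin, which ended at 0.36. The log2 ratio of Shbg over Fshr was 0.41 higher in Mili-/- than in Mili+/-. Shbg over Amh was 2.82 in Mili-/- and 2.95 in Mili+/- (log2 change -0.07), so these higher members differed between the arrays by almost the same factor.

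**Figure D2:**
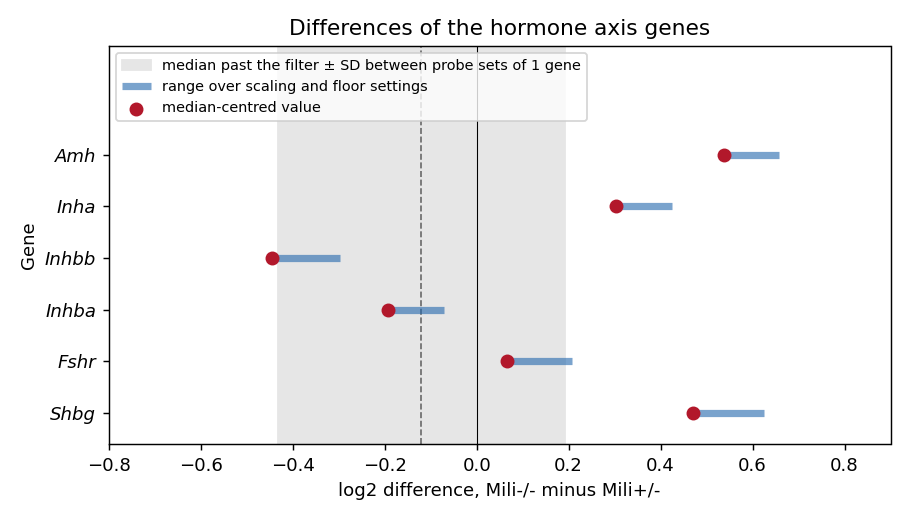
Difference in log2 signal, Mili-/- minus Mili+/-, for the 6 genes. Red points are the median-centred values, blue bars the range over scaling and floor settings, and the grey band the median of compared probe sets (-0.12, dashed) ± the SD of 0.31 between probe sets of 1 gene. Amh, Shbg and Inha lie right of the band, Inhbb at its left edge, and Fshr and Inhba within it at the centred value.

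**Figure D3:**
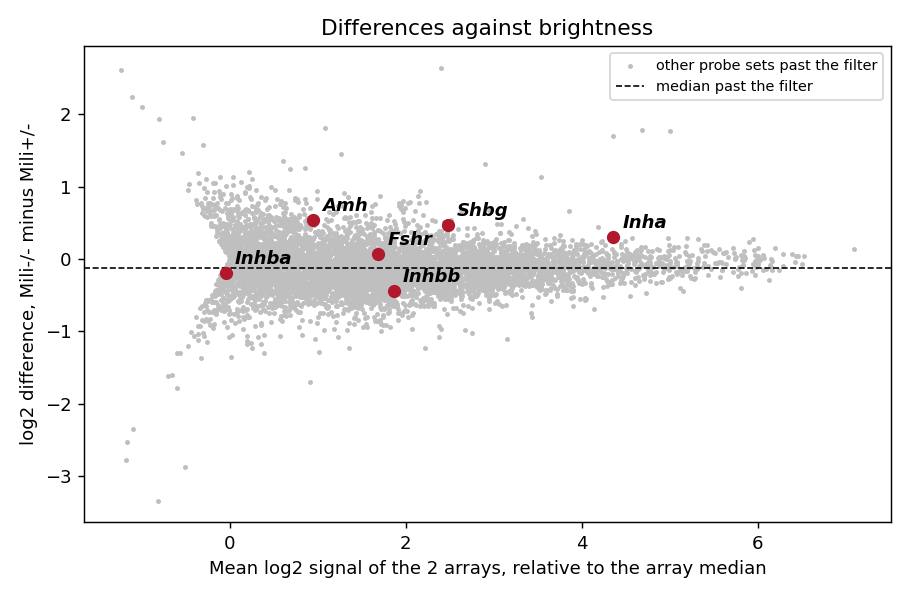
Difference (log2, Mili-/- minus Mili+/-) against mean log2 signal relative to the array median for the 6484 compared probe sets (grey), with the 6 genes in red. The cloud narrows with brightness, and Inha and Shbg stand near its upper edge while Inhba lies among dim probe sets.

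Sertoli cell markers other than these genes gave a baseline for the cell type. Of 24 marker genes 20 had a probe set and 18 were compared, with a median difference of 0.02, and 13 lay above and 5 below the array-wide median. The summed deposited signal of the 20, not centred, was 12070.5 in Mili-/- and 10880.3 in Mili+/-. The array medians differed in the same direction (41.55 in Mili-/- and 38.5 in Mili+/-). The 75th percentiles of the arrays differed in the opposite direction (132.5 in Mili-/- and 135 in Mili+/-). Sox9, a defining Sertoli gene, was not among those measured by a single-symbol probe set, but Cst9 (1276 in Mili-/- and 1175 in Mili+/-), Clu (2636 in Mili-/- and 2363 in Mili+/-) and Aard (1610 in Mili-/- and 1314 in Mili+/-) were bright on both arrays. Relative to the Sertoli median, Amh stood at 0.52, Shbg at 0.45, Inha at 0.29, Fshr at 0.05, Inhba at -0.21 and Inhbb at -0.46. The Sertoli genes that differed most were Rhox5, an androgen-responsive homeobox gene (275 in Mili-/- and 185 in Mili+/-, 0.47), Hsd17b1, an oestrogen-forming dehydrogenase (45.5 in Mili-/- and 57.7 in Mili+/-, -0.45), the sex-determination gene Dmrt1 (505.5 in Mili-/- and 630 in Mili+/-, -0.43) and the GATA factor gene Gata1 (130 in Mili-/- and 92.3 in Mili+/-, 0.38). In such bulk RNA, fewer cells of a type and less RNA per cell cannot be told apart.

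Germ cell markers stood lower in the same comparison. At the median-centred values all 10 compared genes of 18 listed lay below 0, 9 of them below the array-wide median, with a median of -0.44. Of all compared probe sets, 32.7% lay above 0 at these values. The germ cell median was -0.33 with the values as deposited and -0.34 with both arrays past the brightness minimum. The summed deposited signal, over the 14 with a probe set, was 3203 in Mili-/- and 3761 in Mili+/-. The furthest were Sall4 of undifferentiated spermatogonia (34.7 in Mili-/- and 57.4 in Mili+/-, -0.84), which reached the brightness minimum on the Mili+/- array alone, the meiotic entry gene Stra8 (198 in Mili-/- and 303 in Mili+/-, -0.72), the receptor gene Kit (144 in Mili-/- and 205 in Mili+/-, -0.62) and the helicase gene Ddx25 (95.6 in Mili-/- and 134 in Mili+/-, -0.60). The part of this shift in the values of Amh, Shbg and Inha was not tested.

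Markers of other cells also differed. Summed signals are of deposited values, not centred, over every listed gene with a probe set, compared or not. No marker of any list was at 0 on either array. Leydig cell genes had a median of -0.23 (7 of 10 compared, summed signal 1038 in Mili-/- and 1054 in Mili+/-), with Igf1 at 0.42 and Cyp17a1 (-0.37), Thbs2 (-0.36) and Hsd3b1 (-0.36) low. The other compared probe sets of Igf1 and Hsd3b1 stood at 0.14 and -0.16. Peritubular genes had a median of 0.01 (7 of 8 compared, summed signal 2333 in Mili-/- and 2203 in Mili+/-), with Actg2 at 0.64, Myh11 at -0.43, Fn1 at 0.36 and Cnn1 at 0.17. Macrophage genes had a median of 0.10 (7 of 9 compared, summed signal 648 in Mili-/- and 579 in Mili+/-), with Cx3cr1 at 0.68, Mpeg1 at 0.57, Cd74 at 0.49 and Lyz2 at -0.44. Endothelial genes had a median of 0.10 (4 of 7 compared, summed signal 632.5 in Mili-/- and 634 in Mili+/-), with Mcam at -0.60, Pecam1 at 0.45, Cdh5 at 0.45 and Eng at -0.25. Adipose genes had a median of 0.90 (5 of 8 compared, summed signal 478 in Mili-/- and 249 in Mili+/-) and Car3 at 1.36, Scd1 at 0.91, Adipoq at 0.90 and Fabp4 at 0.64. Erythroid genes had a median of 0.80 (4 of 8 compared, summed signal 2038.5 in Mili-/- and 1504 in Mili+/-), with Tspo2 at 0.95, Alas2 at 0.82, Rhd at 0.77 and Hba-a1 at 0.28. Of these, Cx3cr1, Pecam1, Adipoq, Fabp4, Car3, Alas2 and Rhd reached the brightness minimum only in Mili-/-, a selection for higher values. With both arrays required to reach it, the adipose median was 0.54 (Scd1 and Lpl only) and the erythroid 0.61 (Hba-a1 and Tspo2 only). The macrophage median was then -0.05 and the endothelial -0.25 (Cdh5, Eng and Mcam only). Between these 2 arrays, germ cell markers thus stood lower and adipose and erythroid markers higher, the adipose and erythroid ones on few genes. The macrophage and endothelial medians changed sign with the brightness minimum used. The part of these differences in the hormone gene values was not tested.

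Genes that act on the hormones or downstream of them went both ways within each list, and the medians of the lists with 5 or more compared genes lay between -0.12 and 0.00, against 0.18 for the 6 members. These medians depended on the setting. With the values as deposited the same lists lay between -0.01 and 0.11, against 0.29 for the members. With the brightness minimum at the 75th percentile, which compares fewer genes, they lay between -0.38 and 0.07, against 0.18. The androgen response list stood at 0.33, above the members, when all probe sets of a gene were averaged, and at 0.14 without suffixed probe sets. Each gene is given by its brightest single-symbol probe set. Of 14 transcription factors known to act on Amh, 8 were compared, with a median of -0.06, 2 higher and 1 lower by at least 0.32. Nr5a1, whose product (steroidogenic factor) activates Amh and Inha, gave 883 in Mili-/- and 602 in Mili+/- (0.44). Its other compared probe sets stood at 0.38 and 0.09, the first with a suffix for shared sequence and the second with one for relaxed probe selection. Gata1, whose product can bind GATA sites in inhibin promoters, stood at 0.38, with 0.04 in its other compared probe set. Dmrt1 stood at -0.43 and Gata4, an activator of Amh, had 161 in Mili-/- and 182 in Mili+/- (-0.29).

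On the activin and inhibin side, 8 of 18 listed genes were compared, with a median of -0.12, equal to that of the array. By at least 0.32, 2 were higher and 2 lower. The list holds genes for receptors, coreceptors and antagonists, and also the beta subunit genes Inhbc and Inhbe and the gene Furin. The type II activin receptor gene Acvr2b had 129.5 in Mili-/- and 159 in Mili+/- (-0.41), Inhbc stood at 0.35 and the follistatin-like gene Fstl1 at -0.35. Acvrl1 stood at 0.33 in a probe set marked for relaxed selection, while its others stood at 0.24 and -0.44. The inhibin coreceptor gene Tgfbr3 (29.0 in Mili-/- and 26.7 in Mili+/-) and the activin-binding follistatin gene Fst (22.3 in Mili-/- and 21.3 in Mili+/-) were below the brightness minimum. Among Smad and effector genes 8 of 12 were compared, with a median of -0.04, 1 higher and 3 lower. Smad6, which inhibits signalling, had 82.5 in Mili-/- and 46.8 in Mili+/- (0.71). The transducer genes Smad1 (165 in Mili-/- and 236 in Mili+/-, -0.63, with -0.24 in a second probe set) and Smad4 (346 in Mili-/- and 461 in Mili+/-, -0.52) and the target gene Id2 (-0.38) were lower.

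On the FSH side, 11 of 20 genes of receptor signalling were compared, with a median of -0.07, 1 higher and 1 lower by at least 0.32. The protein kinase A catalytic gene Prkacb had 236 in Mili-/- and 311 in Mili+/- (-0.51), the cAMP-responsive factor gene Creb1 stood at 0.49 (with -0.09 in its other compared probe set), the adenylyl cyclase gene Adcy3 at -0.30 and the arrestin gene Arrb1 at -0.17. Creb1 passed the brightness minimum on the Mili-/- array alone. Of 17 genes that respond to FSH or cAMP in Sertoli cells, 12 were compared, with a median of 0.00, none higher and 2 lower by at least 0.32. These were the clock gene Per1 (135 in Mili-/- and 176 in Mili+/-, -0.49) and Fos (-0.38), which passed through the Mili+/- array alone. The lactate dehydrogenase gene Ldha stood at 0.26, and Inhba, also in this list, at -0.19.

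Of 8 genes that answer to androgen in Sertoli cells, 5 were compared, with a median of -0.05, 2 higher and 1 lower. Rhox5 stood at 0.47, as above, the dopamine receptor gene Drd4 at 0.33 (258 in Mili-/- and 190 in Mili+/-), the androgen receptor cofactor gene Ncoa4 at -0.44 and the tubulin gene Tubb3 at -0.13. The other compared probe set of Tubb3 stood at 0.14. Of 12 gonadotropin and steroid partners only Lhb and Hsd17b1 were compared. Lhb, the gene of the luteinising hormone beta subunit, had 141.5 in Mili-/- and 72.5 in Mili+/- (0.85). Fshb, the pituitary FSH subunit gene, was dim (12.4 in Mili-/- and 9.30 in Mili+/-).

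**Figure D4:**
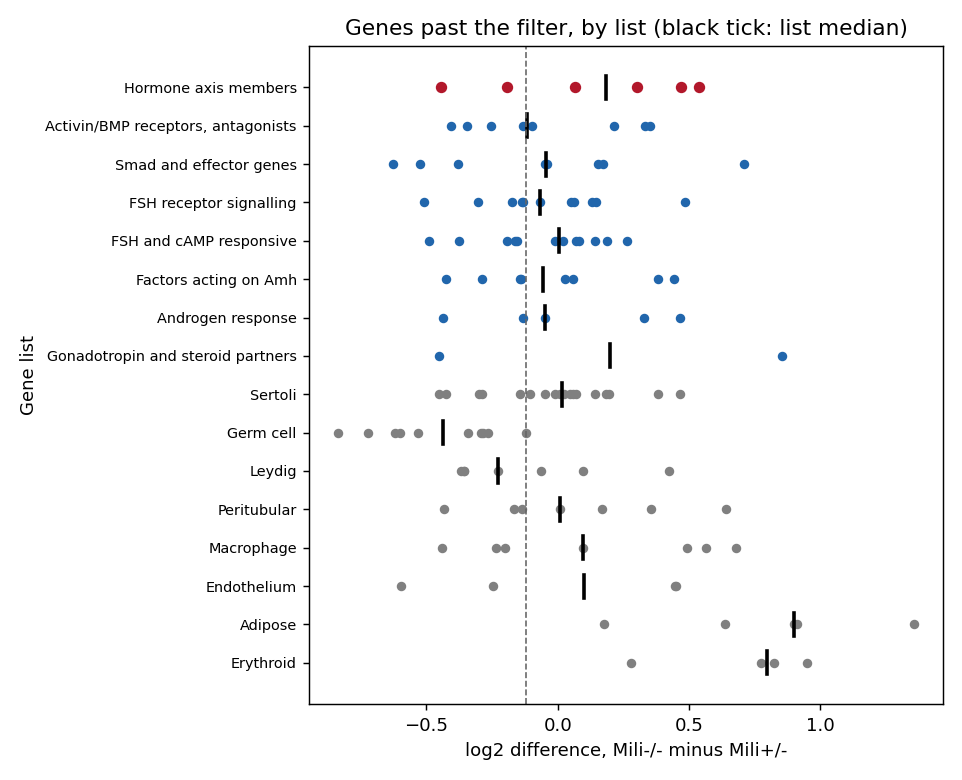
Difference (log2, Mili-/- minus Mili+/-) of each compared gene by list, with the 6 hormone axis genes in red, pathway lists in blue and cell type lists in grey. Black ticks are list medians and the dashed line is the median of all compared probe sets (-0.12). The germ cell list lies lowest and the adipose and erythroid lists highest. With both arrays past the brightness minimum, which leaves few genes, the adipose and erythroid medians were 0.54 and 0.61.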

How the data were processed

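The authors deposited 1 signal intensity per probe set and array. How they were scaled and background-corrected was not stated in the labels or file header. Probe sets were named from a platform annotation (10833 of 12422 non-control probe sets with 1 symbol, 396 with several, 1193 not listed), updated by Entrez ID through a RefSeq table of GRCm38.p6 (10817 matched). The members and lists were chosen with earlier results of these data known. Signals were floored at each array's 20th percentile (7 in Mili-/- and 6.3 in Mili+/-), converted to log2 and centred on the array median. The brightness minimum was the array's median, on at least 1 array. A gene in a list took its brightest probe set. Every member was named, and from each list the up to 4 compared genes with the largest absolute difference, and any other gene was chosen after its values were seen. With 2 arrays, no likeness of pattern across samples was defined. Piwil2 had no annotated probe set, so the genotype labels could not be checked on the target. The code was tested on simulated data. The number of arrays limits the precision. Python 3.11.15, NumPy 2.4.6, pandas 2.3.3, statsmodels 0.14.6 and matplotlib 3.10.9 were used. The alternatives were no centring, quantile normalization, loess (span 0.4), other floors, other brightness minimums, folds of 1.5 and 3, the mean over probe sets, and no suffixed probe sets. Centring on the compared probe sets' median was added after seeing the data.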

Additional observations from a re-analysis of the deposited data

How the results depend on the processing

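The differences of Amh, Inha, Inhbb, Inhba, Fshr and Shbg kept their sign under every scaling, floor and suffix setting run. They moved by less than the SD between probe sets of 1 gene. The floor and suffix settings could not move them, since every member signal lay above the floors and no member probe set has a suffix. No centring and centring on the compared probe sets shift every difference by the same constant, smaller than that SD. Only quantile normalization and loess could move members by different amounts. Amh ranged from 0.54 to 0.66, Shbg from 0.47 to 0.63, Inha from 0.30 to 0.42, Fshr from 0.07 to 0.21, Inhba from -0.19 to -0.07 and Inhbb from -0.44 to -0.30. Inhbb was under 0.32 in size after quantile normalization and loess, so 0 members were then lower by that size, and with the brightness minimum at the 75th percentile, which Amh and Inhba did not reach, 1 member was higher by that size. No member reached 2-fold in any setting, and none reached 1.5-fold at the median-centred values, but the array-wide counts moved. The 2-fold counts, higher then lower in Mili-/-, were 52 and 26 as deposited, 293 and 245 with no minimum, 8 and 5 at the 75th percentile, 10 and 11 with both arrays past the minimum, and 52 and 24 when centred on the compared probe sets. Without suffixed probe sets 14 were higher. At 1.5-fold the counts were 193 and 343 and at 3-fold 11 and 9. The counts past 0.32 (log2) in size were 856 and 815 as deposited, 812 and 810 after quantile normalization, 827 and 806 after loess, 1750 and 2467 with no minimum, 131 and 663 at the 75th percentile, and 896 and 769 when centred on the compared probe sets. With both arrays past the minimum 344 were higher. Of the list medians, the androgen response list stood at 0.33 with the mean over probe sets. With the minimum at the 75th percentile the gonadotropin and steroid partners stood at 0.85, the Smad genes at -0.38, the endothelial genes at -0.25 and the erythroid genes at 0.28. With both arrays past the minimum the adipose genes stood at 0.54 and the endothelial genes at -0.25. The stricter minimums compare fewer genes, and the cause of the other changes was not tested. No paired analysis was possible because each genotype had 1 array.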
